A study of Homo sapiens with 4 samples.

Results

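The genes described here make, sense and move cholesterol and fatty acids: 47 genes were chosen by symbol, from 64252 rows of a gene count table, as the core of both pathways, and 1 row was found for each. They fall by role into 5 regulators of synthesis, 18 enzymes that lead from acetyl-CoA to cholesterol, 7 genes that move, sense or store sterols, and 17 enzymes that make, desaturate, elongate or activate fatty acids. RNA was sequenced from SK-N-BE(2), a human neuroblastoma cell line, with a short hairpin RNA against CDK5RAP3 (shCDK5RAP3, 2 libraries) or a control hairpin (shControl, 2 libraries). No other treatment or time is given in the labels, nor is the number of hairpins, and both groups are of 1 cell line. CDK5RAP3 is a partner of the UFM1 ligase at the endoplasmic reticulum (ER), and the study's title links it to ER-phagy, the turnover of ER by autophagy.

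Cholesterol and unsaturated fatty acids are made largely by enzymes of the ER membrane, and the factors that control them are anchored there too. SREBP1 and SREBP2, the products of SREBF1 and SREBF2, are held in the ER by SCAP and INSIG proteins when sterol is plentiful; when it is scarce, SCAP escorts them to the Golgi, proteases release their active part, and synthesis genes are switched on. LXR receptors (NR1H2 and NR1H3) sense oxidised sterols and switch on export genes such as ABCA1 and ABCG1. SREBP2 is known mainly for the sterol genes and SREBP1 for the fatty acid genes.

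SREBPs are weak activators alone and are known to act beside NF-Y, which binds the CCAAT box. The promoters below, 5′ to 3′ on the gene's strand, are examples chosen among genes whose windows hold a marked sequence. SREBF2, whose own change did not pass, stands for the regulators. SCAP and SREBF1, the regulators that fell, had no such sequence to show. MVK and SC5D stand for the sterol enzymes that rose, LSS for one that fell and STARD4 for sterol handling. SCD, SCD5 and ELOVL1 stand for the fatty acid enzymes that fell. The sequences come from RefSeq (GRCh38.p14). Capitals mark CCAAT or its complement ATTGG and, in SREBF2, first a match to the sterol regulatory element TCACNCCAC.
SREBF2, chr22:41832962-41833013, plus strand: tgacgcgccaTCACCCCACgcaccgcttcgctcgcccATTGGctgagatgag
MVK, chr12:109573574-109573762, plus strand: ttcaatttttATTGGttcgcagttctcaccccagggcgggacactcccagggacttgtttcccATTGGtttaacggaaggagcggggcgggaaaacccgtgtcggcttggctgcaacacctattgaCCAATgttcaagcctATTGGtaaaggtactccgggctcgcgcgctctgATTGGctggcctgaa
SC5D, chr11:121292705-121292729, plus strand: ccggtcgctgATTGGctggccgctc
LSS, chr21:46228910-46228934, minus strand: cggcgctctgATTGGttgcgtgggc
STARD4, chr5:111512651-111512706, minus strand: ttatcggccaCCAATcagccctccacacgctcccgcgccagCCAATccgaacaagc
SCD, chr10:100346994-100347061, plus strand: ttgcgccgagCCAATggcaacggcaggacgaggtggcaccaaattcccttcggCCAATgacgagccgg
SCD5, chr4:82798917-82798941, minus strand: ggcgctcctgATTGGctgtagctaa
ELOVL1, chr1:43368062-43368086, minus strand: tgccggccgcCCAATcagcgggcgc

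Windows of 250 bases before to 50 after a start were held for 42 of the 47 genes. CCAAT, on either strand, stood in the windows of 31 of the 42 (73.8%), against 6676 of 15843 protein-coding genes (42.1%). Counted per window, since some genes have several, it was in 35 of 61 windows of the lipid genes (57.4%) and in 34.7% of all windows of protein-coding genes. The sterol enzymes held it in 13 of 15 genes and the fatty acid enzymes in 12 of 16. Among genes that changed after the hairpin, 4 of 4 that rose and 12 of 17 that fell held the box. So did 15 of 19 that did not pass, so it was common whether or not a gene changed. TCACNCCAC was found in SREBF2 and ACSL1 only, 2 of 42 genes, against 1.51% of protein-coding genes. In both genes it lay apart from the CCAAT box, and in IDI1 and NSDHL a CCAAT and an ATTGG share bases. These matches are descriptions of letters in a window.

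The libraries held 28653689 and 30138393 counts in shCDK5RAP3 and 28721740 and 28755837 in shControl. CDK5RAP3 itself had 1669 and 1689 counts in shCDK5RAP3 cells, against 2529 and 2866 in shControl cells, a partial fall to 62.1% of control (edgeR adjusted p = 0.000163). Nothing in the labels says that replicates were separate cultures, so p-values measure only the spread between these libraries. All 7 neuroblastoma markers checked were expressed and 6 of them fell, with summed levels of 1727 and 1808 CPM (counts scaled to a common library size) in shCDK5RAP3 and 2664 and 2941 in shControl. The fibroblast markers DCN and PDGFRB together stood at 56.1 and 49.6 CPM in shCDK5RAP3 and at 259 and 236 in shControl, leukocyte, endothelial and epithelial markers at 6.88 CPM or less in any library, and the adipocyte and hepatocyte markers at 0.585 or less, with ADIPOQ and TTR at 0 in all 4. The part of these shifts in the lipid genes was not tested, and in bulk RNA fewer cells of a type and less RNA per cell cannot be told apart.

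Of the 47 genes, 45 passed the filter on low counts. In shCDK5RAP3 cells 18 of these fell, 5 rose and 22 did not pass an edgeR adjusted p of 0.05, taken over all 18775 genes tested. Change was common everywhere: 41.5% of all tested genes passed, 19.7% as higher and 21.8% as lower. Weakly expressed genes lower that share. With only genes of at least 1 CPM in 2 libraries kept, 48.5% of all genes passed, and 5 lipid genes rose and 19 fell. For 37 of the 45 lipid genes every library of one group lay above every library of the other, as did 71.4% of all tested genes. Their median log2 fold change was -0.16, beside -0.0034 for all tested genes. The falls lay mainly among fatty acid enzymes (9 of 15 tested) and sterol handling genes (4 of 7), with 3 of 18 among the sterol enzymes and 2 of 5 among the regulators. Without shCDK5RAP3 replicate 2 the count that passed was 15, of which 13 fell, and the count over all genes was 3752.

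Per exonic length, scaled as TPM (counts per exonic base, brought to 1 common total per library), the fatty acid enzymes SCD, ACLY and FASN were the most abundant of the 47 in both groups. SCD had 519 ± 13.8 TPM in shCDK5RAP3 and 885 ± 53.1 in shControl, ACLY 357 ± 19.7 and 374 ± 6.98, and FASN 283 ± 20.7 and 252 ± 4.73 (SD, n = 2 each). Among the sterol enzymes FDPS led in shCDK5RAP3 cells with 145 TPM and FDFT1 in shControl cells with 156 TPM. Both leads were narrow, with FDFT1 at 142 TPM in shCDK5RAP3 and HMGCS1 at 151 in shControl. The changes of FDPS and FDFT1 did not pass. The isoforms of a reaction differed widely. SCD5, the second stearoyl-CoA desaturase gene, stood at 6.11 TPM in shCDK5RAP3 and 17.2 in shControl, far under SCD, and ACACB at 2.41 and 4.86, under ACACA at 23.9 and 27.4. The exporters ABCA1 and ABCG1 and the elongases ELOVL2 and ELOVL7 were below 2 TPM in both groups.

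**Figure D1:**
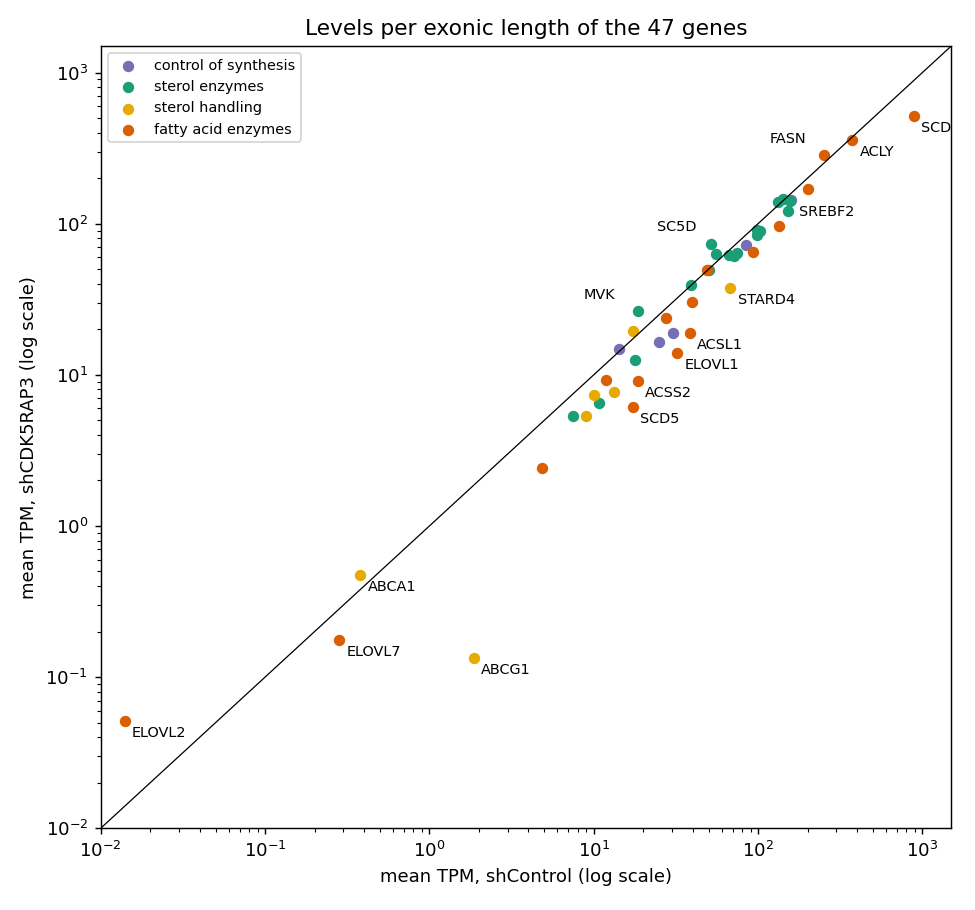
Mean TPM of each of the 47 genes in shCDK5RAP3 cells (vertical axis) against shControl cells (horizontal axis), both on a log scale, with the line of equal levels and points coloured by role (n = 2 libraries per group). SCD, at 519 TPM in shCDK5RAP3 and 885 in shControl, lies at the top and under the line, ACLY and FASN lie close to it, and ABCG1 is far below it.

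Of the regulators, the escort and the fatty acid factor were lower and the sterol factor was little different. SCAP, the sterol-sensing escort of the SREBPs, had 1132 and 1127 counts in shCDK5RAP3 and 1682 and 1819 in shControl. The highest shCDK5RAP3 library was under the lowest shControl library, at a log2 fold change of -0.63 ± 0.08 (SE; edgeR adjusted p = 0.000279). SREBF1 had 1267 and 1195 counts in shCDK5RAP3 and 1727 and 1856 in shControl, again without overlap (-0.54 ± 0.08 SE, edgeR adjusted p = 0.000807). SREBF1 shares exonic sequence with RAI1 on the other strand, which had a change of 0.18 (edgeR adjusted p = 0.0803). SREBF2, by contrast, had 10042 and 10336 counts in shCDK5RAP3 and 10889 and 10558 in shControl. Its log2 fold change of -0.08 did not pass (edgeR adjusted p = 0.317), although its groups did not overlap either. Groups without overlap were found for 4 of the 5 regulators and for 71.4% of all tested genes. INSIG1, which retains SCAP in the ER and is itself an SREBP target, had 2395 and 2538 counts in shCDK5RAP3 and 2737 and 2774 in shControl. Its change of -0.16 did not pass (edgeR adjusted p = 0.0629), but passed when only library size was used for scaling (0.0341). INSIG2, a second ER anchor that is not an SREBP target, had 496 and 601 counts in shCDK5RAP3 and 497 and 509 in shControl, overlapping groups with a log2 change of 0.12 (edgeR adjusted p = 0.46).

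In the mevalonate pathway, which builds isoprene units from acetyl-CoA, 2 of 7 enzymes rose and 1 fell. These calls were 42.9% of the 7, near the 41.5% of all tested genes. MVK, mevalonate kinase, had 1534 and 1657 counts in shCDK5RAP3 and 1032 and 1115 in shControl. It was 1.48-fold higher, with every shCDK5RAP3 library above every shControl library (log2 change 0.57 ± 0.08 SE, edgeR adjusted p = 0.000574). MVK shares exonic sequence with MMAB on the other strand, whose change was -0.16 (edgeR adjusted p = 0.152). IDI1, which isomerises isopentenyl diphosphate, had 2508 and 2582 counts in shCDK5RAP3 and 2152 and 2170 in shControl (0.23 ± 0.06 SE, edgeR adjusted p = 0.0164). HMGCS1, which makes HMG-CoA, went the other way, with 5195 and 5531 counts in shCDK5RAP3 and 6565 and 6116 in shControl (-0.25 ± 0.06 SE, edgeR adjusted p = 0.0144). Neither HMGCS1 nor IDI1 passed once a shCDK5RAP3 library was left out: HMGCS1 had an edgeR adjusted p of 0.156 without replicate 1 and 0.112 without replicate 2, and IDI1 had 0.114 and 0.123. HMGCS1 also missed the threshold without a filter (0.071). ACAT2, the cytosolic thiolase of the first step (-0.15), PMVK (-0.14) and MVD (0.04), which phosphorylate and decarboxylate mevalonate intermediates, and FDPS (0.10), which joins the units to farnesyl diphosphate, did not pass. ACAT2 overlaps TCP1 on the opposite strand, which rose by 0.61, and whether counting used strand is not stated, so reads of such pairs cannot be told apart. FDPS likewise overlaps RUSC1-AS1 (0.53, edgeR adjusted p = 0.0579).

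From squalene to cholesterol, 1 of 11 enzymes rose, 2 fell and 8 did not pass (27.3% passed, beside 41.5% of all tested genes). SC5D, the lathosterol desaturase near the end of the pathway (GRCh38 chromosome 11, 121292453 to 121308694), had 3649 and 4017 counts in shCDK5RAP3 and 2536 and 2589 in shControl. This 1.49-fold difference (log2 change 0.58 ± 0.06 SE, edgeR adjusted p = 0.000163) was the largest rise of the 47 genes. LSS, which closes squalene epoxide to lanosterol, had 849 and 854 counts in shCDK5RAP3 and 1135 and 1158 in shControl (-0.43 ± 0.08 SE, edgeR adjusted p = 0.00327), and lost its call without shCDK5RAP3 replicate 2 (0.0579). TM7SF2, a sterol reductase, had 186 and 229 counts in shCDK5RAP3 and 316 and 338 in shControl (-0.66 ± 0.16 SE, edgeR adjusted p = 0.00933), with no call without shCDK5RAP3 replicate 1 (0.0873) or without a filter (0.0592). TM7SF2 shares exonic sequence with VPS51 on the same strand, which changed by -0.33 (edgeR adjusted p = 0.00296), so its value is uncertain. The enzymes that did not pass lay between -0.41 and 0.14. SQLE, the squalene epoxidase and a control point of the pathway, had 5427 and 5769 counts in shCDK5RAP3 and 5103 and 5058 in shControl (0.14 ± 0.06 SE, edgeR adjusted p = 0.1). FDFT1 (-0.07), which makes squalene, CYP51A1 (-0.14), MSMO1 (-0.13) and NSDHL (0.08), which remove methyl groups from lanosterol, EBP (-0.04), a sterol isomerase, and DHCR7 (-0.05), which catalyses a last reduction to cholesterol, did not pass either, though CYP51A1 passed without shControl replicate 2 (edgeR adjusted p = 0.0423). HSD17B7, a ketosteroid reductase, had a change of -0.41 just outside the threshold (edgeR adjusted p = 0.0517), passed in 5 of the alternative fits, with p from 0.0402 to 0.0453 there, and has pseudogenes that could share its reads.

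**Figure D2:**
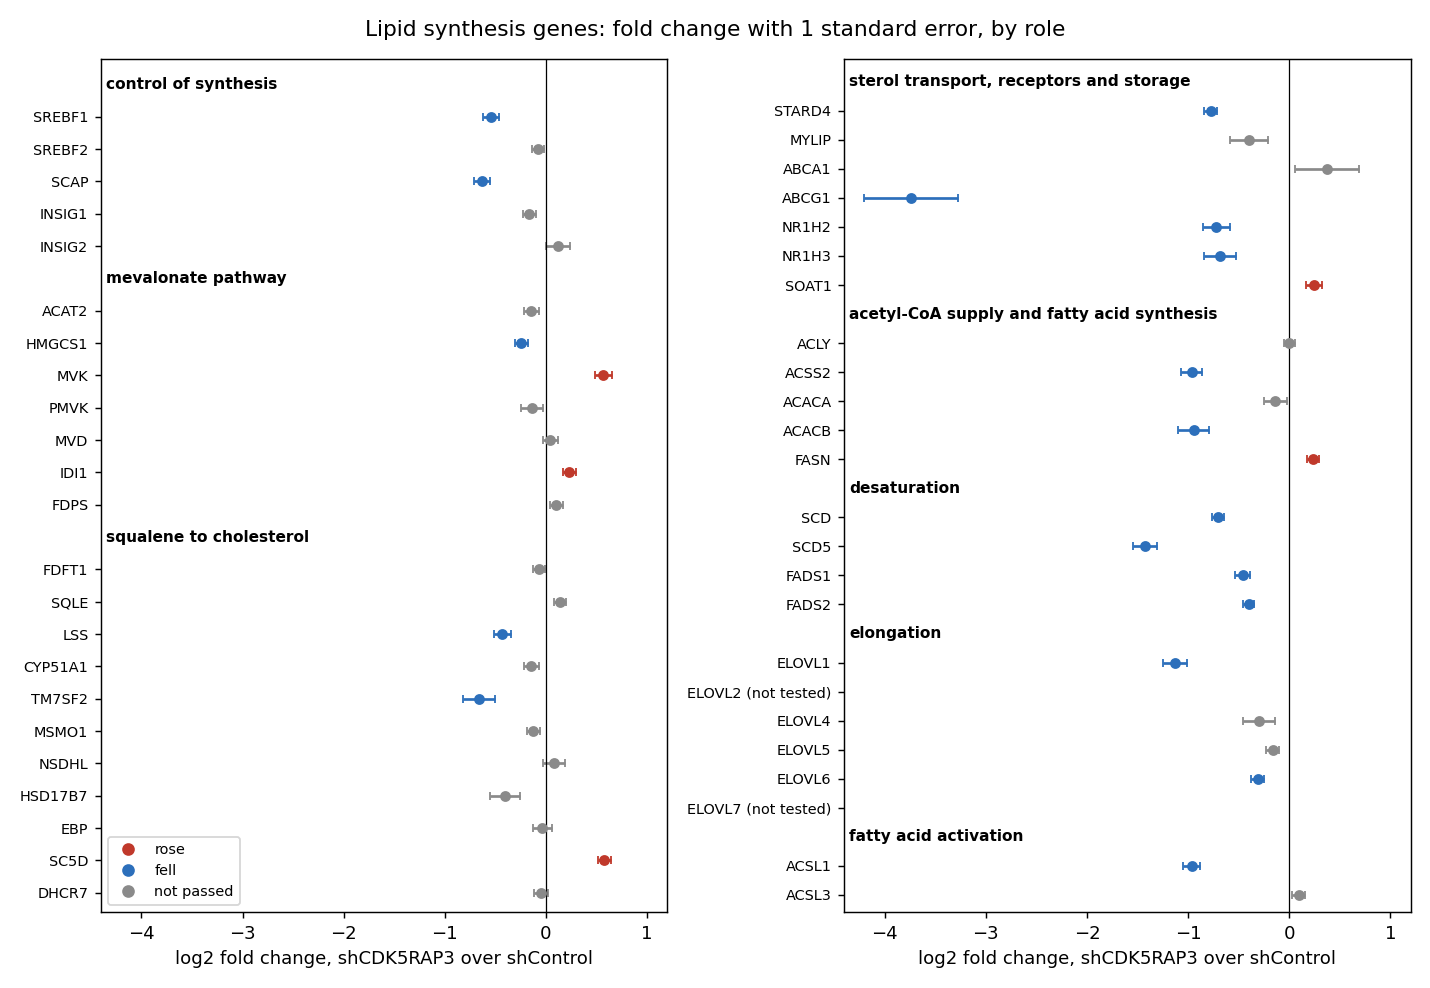
Log2 fold change of each gene, shCDK5RAP3 over shControl, with bars of 1 standard error from the edgeR fit and genes grouped by role; red rose, blue fell and grey did not pass an adjusted p of 0.05. Most sterol enzymes sit near 0, whereas all 4 desaturases lie left of it and ABCG1 stands apart at -3.74.

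Among the 7 genes that move, sense or store sterols, 4 fell and 1 rose (71.4% passed, beside 41.5% of all tested genes). STARD4, a carrier that shuttles cholesterol between membranes and a known SREBP2 target (chromosome 5, 111496033 to 111512590), had 1991 and 2029 counts in shCDK5RAP3 and 3341 and 3533 in shControl. It fell to 58.4% of control with no overlap (log2 change -0.78 ± 0.06 SE, edgeR adjusted p = 3.17e-05). Its antisense neighbour STARD4-AS1 changed by -0.61, and without strand information reads of the pair cannot be told apart.

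ABCG1, a transporter that exports cholesterol to lipoproteins (chromosome 21, 42199689 to 42297244), had 12 and 3 counts in shCDK5RAP3 and 102 and 101 in shControl. Summed, this was 7.37% of control (95% exact interval 4.05% to 12.5%, counting error only), with a fitted log2 change of -3.74 ± 0.47 (SE, edgeR adjusted p = 0.000278). The shCDK5RAP3 libraries differed from each other at these counts, and with shCDK5RAP3 replicate 1 left out the fit gave -5.04, with replicate 2 left out -3.05. ABCG1 passed the filter through its shControl counts. ABCA1, its partner exporter, had 54 and 46 counts in shCDK5RAP3 and 32 and 45 in shControl, a change of 0.37 ± 0.32 (SE) that did not pass (edgeR adjusted p = 0.381).

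Both LXR receptor genes were lower. NR1H2 (LXR beta) had 249 and 290 counts in shCDK5RAP3 and 436 and 449 in shControl (-0.72 ± 0.14 SE, edgeR adjusted p = 0.00271). NR1H3 (LXR alpha) had 207 and 246 counts in shCDK5RAP3 and 383 and 342 in shControl (-0.68 ± 0.15 SE, edgeR adjusted p = 0.00671). The NR1H3 call was lost without shCDK5RAP3 replicate 1 (edgeR adjusted p = 0.0716) and without a filter (0.0527), and the gene overlaps ACP2 on the other strand, which changed by -0.53. MYLIP, an LXR target that marks lipoprotein receptors for degradation, had 235 and 179 counts in shCDK5RAP3 and 262 and 284 in shControl, a change of -0.40 that did not pass (edgeR adjusted p = 0.12). SOAT1, which esterifies cholesterol for storage, had 1255 and 1298 counts in shCDK5RAP3 and 1073 and 1082 in shControl (0.24 ± 0.08 SE, edgeR adjusted p = 0.0362). That call was lost in 7 of the alternative fits, among them DESeq2 (adjusted p = 0.116) and each fit with 1 library left out (edgeR adjusted p from 0.0855 to 0.16).

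**Figure D3:**
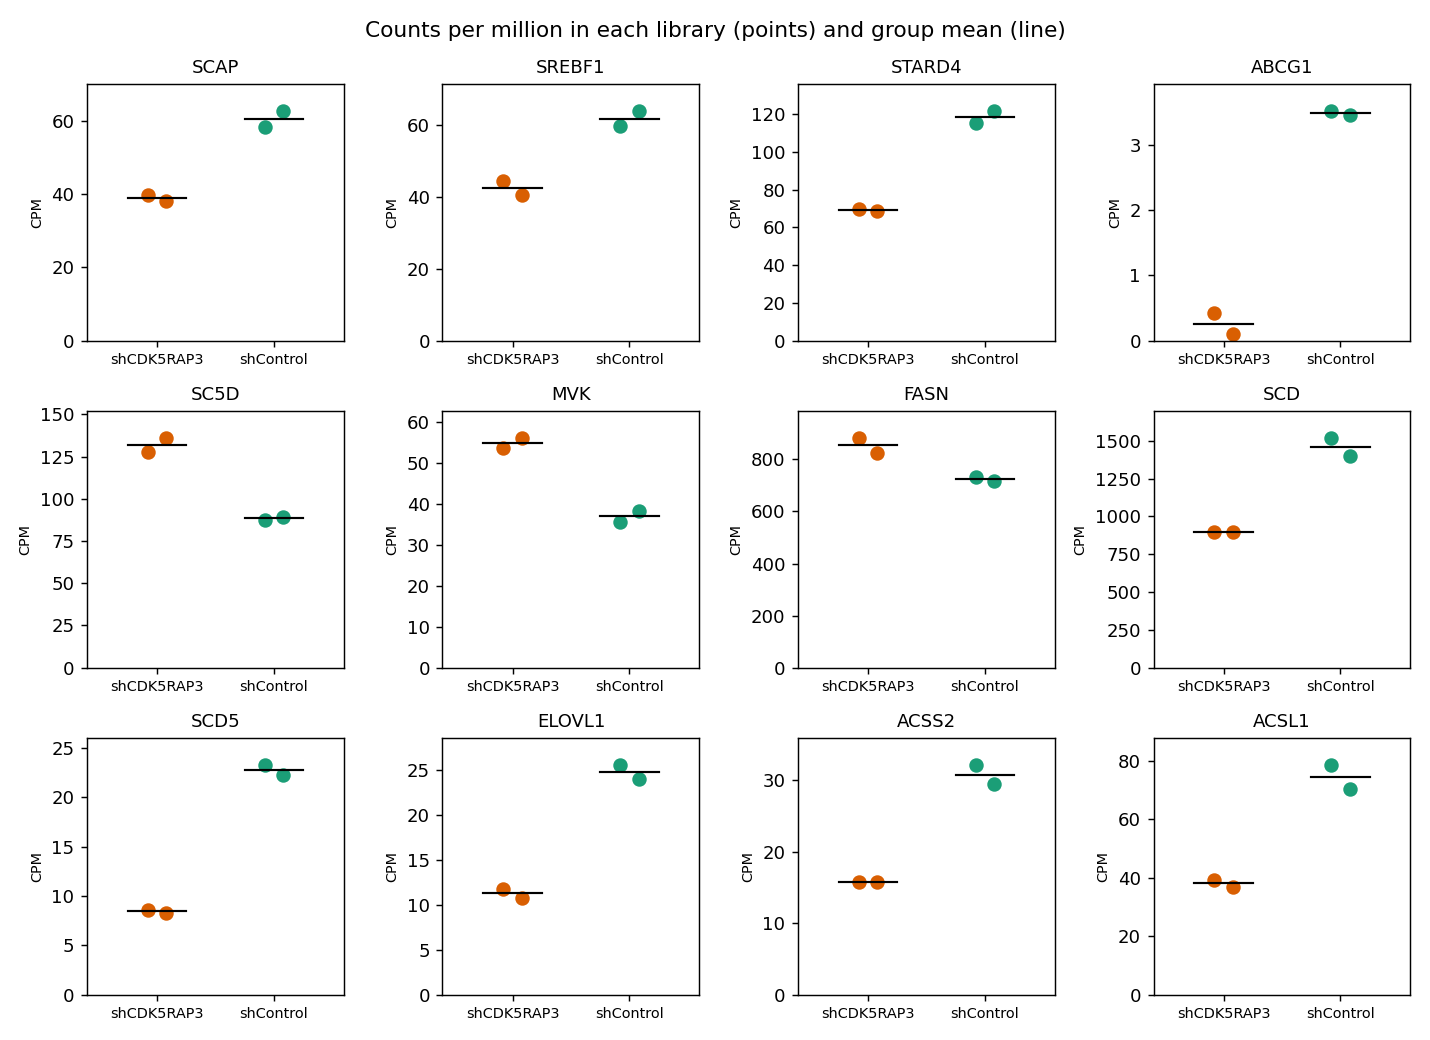
CPM in each library of 12 genes, chosen for their change (points), with the group mean as a line, shCDK5RAP3 left of shControl and every axis starting at 0. The groups do not overlap for any of the 12, which follows from that choice, nor for 71.4% of all tested genes. SC5D, MVK and FASN are higher in shCDK5RAP3 and the other 9 lower.

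At the entry to fatty acid synthesis, genes of the same step parted. ACSS2, which makes acetyl-CoA from acetate and is a known SREBP target, had 450 and 466 counts in shCDK5RAP3 and 926 and 857 in shControl. It fell to 51.3% of control (log2 change -0.96 ± 0.10 SE, edgeR adjusted p = 0.000109). ACLY, which makes acetyl-CoA from citrate, had 17460 and 17408 counts in shCDK5RAP3 and 17538 and 17210 in shControl, overlapping groups with a log2 change of 0.00 ± 0.06 (SE, edgeR adjusted p = 0.981). ACACB, the mitochondrial acetyl-CoA carboxylase, had 353 and 300 counts in shCDK5RAP3 and 701 and 555 in shControl (-0.95 ± 0.16 SE, edgeR adjusted p = 0.00127), a call lost without shCDK5RAP3 replicate 2 (0.0525). ACACA, the cytosolic carboxylase that feeds synthesis, had 3148 and 2634 counts in shCDK5RAP3 and 3459 and 2896 in shControl (-0.14, edgeR adjusted p = 0.368), with replicate 1 higher in both groups. It passed without shControl replicate 2 (0.0468).

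FASN, the fatty acid synthase itself (chromosome 17, 82078333 to 82098332), was the 1 fatty acid enzyme that rose. It had 25145 and 24437 counts in shCDK5RAP3 and 21204 and 20804 in shControl, a 1.18-fold difference without overlap (log2 change 0.24 ± 0.06 SE, edgeR adjusted p = 0.00903). The call was lost without shCDK5RAP3 replicate 1 (edgeR adjusted p = 0.12), without shCDK5RAP3 replicate 2 (0.062) and without a filter (0.0588).

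All 4 desaturases fell, where 21.8% of all tested genes did. SCD, which puts the first double bond into palmitate and stearate (chromosome 10, 100347124 to 100364834), had 25548 and 26517 counts in shCDK5RAP3 and 43878 and 40612 in shControl. It fell to 61.5% of control, with the groups far apart (log2 change -0.70 ± 0.06 SE, edgeR adjusted p = 2.77e-05). SCD5 had 246 and 244 counts in shCDK5RAP3 and 671 and 645 in shControl and fell furthest of the fatty acid enzymes, to 37.2% of control (-1.43 ± 0.12 SE, edgeR adjusted p = 3.23e-05). FADS1 and FADS2, neighbours on chromosome 11 that desaturate polyunsaturated fatty acids, fell by 0.46 ± 0.08 and 0.40 ± 0.06 on the log2 scale (SE; edgeR adjusted p = 0.00142 for FADS1 and 0.00052 for FADS2). FADS1 had 6044 and 6314 counts in shCDK5RAP3 and 9088 and 7873 in shControl, and no call without shCDK5RAP3 replicate 2 (0.0573). FADS2 had 9649 and 10212 counts in shCDK5RAP3 and 13086 and 13076 in shControl. The pair overlap each other on opposite strands, and FADS2 also shares exonic sequence with FEN1 on the same strand, which changed by 0.31, so these values are uncertain.

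Of the 4 elongases tested, 2 fell and 2 did not pass (50% passed, beside 41.5% of all tested genes). ELOVL1, which extends saturated and monounsaturated very long chains, had 337 and 319 counts in shCDK5RAP3 and 737 and 696 in shControl (-1.13 ± 0.12 SE, edgeR adjusted p = 9.33e-05). ELOVL6, which extends palmitate to stearate, had 2032 and 2097 counts in shCDK5RAP3 and 2514 and 2602 in shControl (-0.31 ± 0.06 SE, edgeR adjusted p = 0.00424), and its call was lost without shCDK5RAP3 replicate 1 (0.0644) and without shCDK5RAP3 replicate 2 (0.072). ELOVL5 (-0.16, edgeR adjusted p = 0.0667) and ELOVL4 (-0.30, edgeR adjusted p = 0.157), which act on polyunsaturated and very long chains, did not pass. ELOVL5 passed by library size (0.0329) and without shControl replicate 2 (0.0315). Too few reads were counted to test ELOVL2, with 0 and 4 counts in shCDK5RAP3 and 0 and 1 in shControl, and ELOVL7, with 9 and 6 counts in shCDK5RAP3 and 20 and 3 in shControl. The activating enzymes, which attach CoA to fatty acids, also parted. ACSL1 had 1126 and 1091 counts in shCDK5RAP3 and 2269 and 2047 in shControl and fell to 51.3% of control (-0.96 ± 0.08 SE, edgeR adjusted p = 3.89e-05), whereas ACSL3, known from lipid droplet formation, had 3304 and 3397 counts in shCDK5RAP3 and 3190 and 3071 in shControl (0.09, edgeR adjusted p = 0.262).

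Set side by side, 10 of the 15 tested fatty acid enzymes passed (66.7%), 9 lower and 1 higher, with a median log2 change of -0.40. Of the 18 sterol enzymes 6 passed (33.3%), 3 lower and 3 higher, with a median of -0.06. The share over all genes was 41.5%. With ACLY and ACSS2, which supply both branches, left out, the fatty acid enzymes had 1 rise, 8 falls and the same median of -0.40. With the sterol handling genes added, the sterol branch had 4 rises, 7 falls and a median of -0.13. Without shCDK5RAP3 replicate 2 the fatty acid enzymes had 6 calls and the sterol enzymes 3, and without shCDK5RAP3 replicate 1 they had 8 and 3. All genes passed at 18.9% without replicate 2 and at 24.5% without replicate 1. The difference between the branches was not tested. By summed CPM, the 18 sterol enzymes stood at 1616 and 1696 in shCDK5RAP3 and 1640 and 1649 in shControl, so the groups overlapped on this measure. The 17 fatty acid enzymes summed to 3537 and 3449 CPM in shCDK5RAP3 and 4376 and 4125 in shControl, with no overlap. Without SCD those sums were 2642 and 2553 in shCDK5RAP3 and 2859 and 2728 in shControl, so SCD carried most of the gap in summed CPM. CPM is not divided by exonic length, so the overlap of the sterol sums need not hold for summed TPM.

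**Figure D4:**
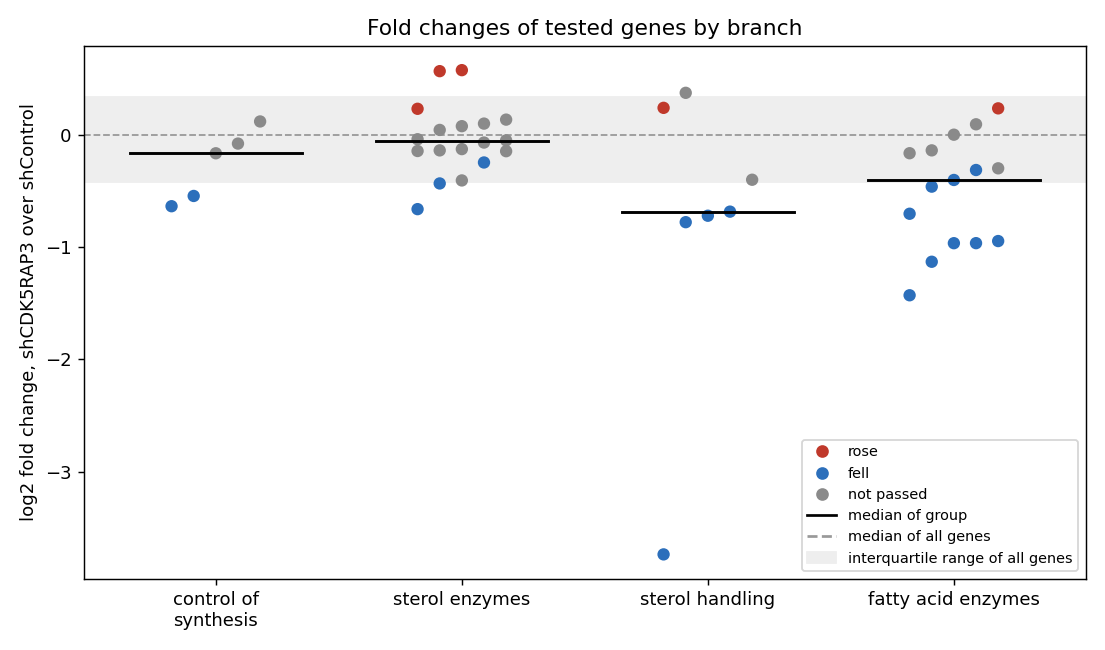
Log2 fold change of each tested gene by branch, shCDK5RAP3 over shControl, with red for rises, blue for falls, grey for genes that did not pass and a line at each branch's median; the grey band is the interquartile range of all 18775 tested genes, from -0.42 to 0.33. The sterol enzymes centre on -0.06 and the fatty acid enzymes on -0.40, with SC5D and MVK above the band and SCD5 lowest of the enzymes.

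Other genes of lipid metabolism, from 6 lists chosen by function, moved in both directions too. Of 71 genes 64 were tested, of which 25 fell, 11 rose and 28 did not pass, with a median log2 change of -0.16. Their 36 calls (56.2%, beside 41.5% of all genes) were 23 without shCDK5RAP3 replicate 1, 18 without shCDK5RAP3 replicate 2 and 24 without a filter, where 24.5%, 18.9% and 13.2% of all genes passed. With only genes of at least 1 CPM in 2 libraries kept, 12 of the other lipid genes rose and 23 fell, where 48.5% of all genes passed. Among other regulators of sterol synthesis 5 of 10 fell and 1 rose (60% passed). PGRMC1, a haem-binding membrane protein that interacts with sterol enzymes, had 991 and 1042 counts in shCDK5RAP3 and 2912 and 3173 in shControl (-1.58, edgeR adjusted p = 1.79e-06). SPRING1, a protein needed for SREBP activation, had 590 and 674 counts in shCDK5RAP3 and 1644 and 1410 in shControl (-1.28, edgeR adjusted p = 3.08e-05). MBTPS2, the site-2 protease that frees SREBP from the membrane, changed by -0.41 (edgeR adjusted p = 0.00329; 0.0663 without shCDK5RAP3 replicate 2).

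Of 14 genes of prenyl branches and accessory sterol steps, 3 fell and 2 rose (35.7% passed, beside 41.5% of all tested genes). FAXDC2, a hydroxylase-like protein, fell by 2.02 on the log2 scale, with 122 and 120 counts in shCDK5RAP3 and 508 and 471 in shControl. It shares exonic sequence with CNOT8 on the other strand, which has more counts and changed by -0.31, so its value is uncertain. The subunits of the dehydrodolichyl diphosphate synthase, which starts from farnesyl diphosphate to make the lipid carrier of N-glycosylation, went opposite ways. NUS1 had 836 and 883 counts in shCDK5RAP3 and 2665 and 2873 in shControl (-1.69, edgeR adjusted p = 1.4e-06), while its catalytic partner DHDDS had 1204 and 1150 counts in shCDK5RAP3 and 722 and 659 in shControl (0.77, edgeR adjusted p = 0.00029).

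Sterol uptake, transport and oxidation genes had 3 falls and 2 rises among 8 tested (62.5% passed, beside 41.5% of all tested genes). SOAT2, the second esterifying enzyme, had 3 and 1 counts in shCDK5RAP3 and 23 and 17 in shControl, or 9.98% of control by summed counts (95% exact interval 2.59% to 27.6%). SOAT2 passed the filter through its shControl counts. Its fitted change of -3.25 was -4.18 without shCDK5RAP3 replicate 1, and its call was lost without shCDK5RAP3 replicate 2 (edgeR adjusted p = 0.0727) and without shControl replicate 1 (0.0504). The lipoprotein receptor LRP8 fell by 0.63 and the endosomal sterol carrier STARD3 rose by 0.58. Further LXR targets moved in both directions. PLTP, a phospholipid transfer protein (-1.41), and LPCAT3, a phospholipid remodelling enzyme (-0.73), fell, and each overlaps a gene on the other strand that rose (CTSA by 0.51 and EMG1 by 0.55). SMPDL3A, a phosphodiesterase, rose by 0.67, with no call for SMPDL3A without shCDK5RAP3 replicate 1 (edgeR adjusted p = 0.119), shCDK5RAP3 replicate 2 (0.0517) or shControl replicate 2 (0.0521).

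Further genes of fatty acid synthesis and elongation had 8 falls and 1 rise among 14 tested. That was 64.3%, beside 41.5% of all tested genes. SLC25A1, which exports the citrate used by ACLY, had 650 and 724 counts in shCDK5RAP3 and 1199 and 1294 in shControl (-0.86, edgeR adjusted p = 0.00012). MID1IP1, which promotes polymerisation of acetyl-CoA carboxylase, fell by 0.58. HSD17B8, of mitochondrial fatty acid synthesis, had 1 and 5 counts in shCDK5RAP3 and 11 and 40 in shControl, or 11.7% of control by summed counts (95% exact interval 4.12% to 27.3%), and it passed the filter through its shControl counts. Its fitted change of -3.04 (edgeR adjusted p = 0.0195) was -1.85 without shControl replicate 2 (0.278) and -4.49 without shCDK5RAP3 replicate 2 (0.0928), and it did not pass without shCDK5RAP3 replicate 1 (0.154) or without a filter (0.166) either. In the last list, of activation, esterification and oxidation, 4 of 14 fell and 3 rose (50% passed, beside 41.5% of all tested genes). MLYCD, which breaks down malonyl-CoA, fell by 0.87, while CPT1A, which admits fatty acids to mitochondria and is inhibited by malonyl-CoA, and ACADVL, the first enzyme of their oxidation, rose by 0.50 and 0.67 on the log2 scale.

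One sequence feature known from an earlier look at these data, the 7-base words AACACCT and ACACCTA in the longest annotated 3′ UTR, was also read. Of protein-coding genes with a log2 CPM of at least 1, 1842 (15.7%) held a word and had a median log2 change of -0.22, against 0.02 for the 9916 without. Genes with a word also had longer 3′ UTRs, with a median of 3195 bases against 1239 without, and no adjustment was made for length. Among the lipid genes 4 of 43 (9.3%) held one, in ELOVL6, ELOVL4, ACACA and SREBF2, and of these ELOVL6 passed as lower. The site in ELOVL6 (chromosome 4) is shown with the word in capitals, as ELOVL6 alone of these 4 genes passed the threshold. Its log2 change of -0.31 was close to that of ELOVL4 (-0.30), which did not pass.
ELOVL6 3′ UTR: cttttctatacAACACCTgattctttgtgc
Of the 39 lipid genes with neither word, 16 fell and 5 rose, with a median of -0.16. Of the 9916 protein-coding genes with neither word, 2464 fell and 2684 rose. The words were chosen with earlier results of these data known, and their part in any change was not tested.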

How the data were processed

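Per the labels' protocols, total RNA was taken with TRIzol and libraries were made with a TruSeq RNA kit. The authors deposited whole-number counts per Ensembl gene, not scaled between libraries. HISAT2 2.2.0, StringTie and hg38 are named in the submitters' processing notes without roles; the sources used here do not give the annotation release, strand setting or handling of multiply mapped reads. Each column was tied to its sample by the label's description. Symbols came from a gene name table and GENCODE 29, which named 56591 of 64252 rows. The members and lists were chosen with earlier results of these data known, and some genes of the pathways are not reported here.

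All 4 libraries were fitted across all genes in R 4.3.3 with edgeR 4.0.16: TMM factors, the default filter by group (18775 genes), the quasi-likelihood test and Benjamini-Hochberg adjustment over all tested genes at 0.05. Log2 fold changes are shCDK5RAP3 over shControl; a standard error is the change divided by the root of the F statistic. CPM used TMM-scaled library sizes, and TPM used exonic lengths from GENCODE 29. The fit had no replicate block, since no label says that equal numbers share a culture. A count of 0 allows up to 3 counts, from 0.0995 to 0.105 CPM in a library; floors and intervals cover counting error only. Libraries of 1 group differed by more than counting noise (chi-square per degree of freedom 6.77 in shCDK5RAP3 and 8.65 in shControl). Named genes are all 47 members, CDK5RAP3 and, in each other list, up to 3 genes with the largest change among those that passed. The procedure was tested on simulated data. Alternatives were other scaling, filters, DESeq2 1.42.0, a robust fit, limma-trend (limma 3.58.1, prior count 2), a replicate block, a threshold of 0.01, each library left out, and other branch borders.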

Additional observations from a re-analysis of the deposited data

How the results depend on the processing

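Over 63 named lipid genes and the alternative fits, 767 of 817 comparisons kept their direction, or had no call in either fit, and their side of the threshold; 35 lost a call, 15 gained one and 0 called values changed sign. CDK5RAP3 passed in every fit. With each library left out in turn, the count of lipid genes that passed ran from 15 to 25, that of sterol enzymes from 3 to 7, that of fatty acid enzymes from 6 to 12 and that of the other lipid genes from 18 to 32. In those fits the lone library of a group is assumed to vary like the others. Sterol enzymes (18 tested) together with sterol handling genes (7 tested) had 11 calls in the main fit, where 41.5% of all tested genes passed. Over all genes, 4488 passed without a filter, 5235 at a threshold of 0.01, 4836 without shCDK5RAP3 replicate 1 and 3752 without shCDK5RAP3 replicate 2, against 7792. Libraries with the same number did not deviate together (r = 0.053 across genes); with the replicate block 29 lipid genes passed, 6 higher and 23 lower, and 9148 of all genes; INSIG1 (edgeR adjusted p = 0.0195), ACAT2 (0.0367), SQLE (0.0281), ACACA (0.0388), HSD17B7 (0.0402) and ELOVL5 (0.0112) passed there and not without the block. Few counts limit the values of ABCG1, SOAT2 and HSD17B8, and ELOVL2 and ELOVL7 were too low to test. No group of 4 or more libraries was available for a search for outlying libraries.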
